A study of Mus musculus with 12 samples.

Results

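Mitochondrial ribosomal protein genes were represented by 138 of 52530 open-chromatin peaks in mouse hepatocyte nuclei. The 138 peaks are those whose annotated gene carries a Mrpl or Mrps symbol followed by a number, and they belong to 68 genes. Of these, 43 are Mrpl genes with 93 peaks and 25 are Mrps genes with 45 peaks. Accessibility was read out by ATAC-seq, whose transposase inserts sequencing adapters into open DNA. Nuclei came from livers of 6 female HEP-INTACT mice, a line in which tagged hepatocyte nuclei can be pulled from a liver homogenate on beads. All mice carried the tag. Its driver and the ages of the mice were not stated in the labels. The first state was a 16 h overnight fast that began at ZT12, when the active phase starts, with 3 mice. The other was free access to food until the same clock time, also with 3 mice. Each mouse gave 1 library from frozen liver and 1 from fresh liver, so there were 12 libraries in 4 groups of 3. The study asked how fasting changes the hepatocyte genome's accessible sites.

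Mitochondrial ribosomes translate the few respiratory chain proteins that mitochondrial DNA encodes. All of their proteins are encoded in the nucleus, made in the cytosol and imported. Some descend from bacterial ribosomal proteins and others exist only in mitochondria. By structure, 45 of the 68 genes encode proteins of the large subunit and 22 encode proteins of the small subunit. Mrps18a and Mrps30 sit in the large subunit in spite of their names. Mrps36 is now known as a component of the 2-oxoglutarate dehydrogenase complex and is kept because its symbol meets the rule.

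RefSeq start sites were available for 59 of the 68 genes (build GRCm38.p6, the same coordinates as the mm10 build of the peak table). The 8 stretches printed here run from 120 bases before to 20 bases after the annotated start, 5′ to 3′ on the gene's strand. Mrps14 had the highest peak of those printed. The start peaks of Mrpl16, Mrps36 and Mrpl30 were among those that were higher in fasted liver, Mrpl2 and Mrpl14 were among those highest in frozen against fresh liver, and Mrps22 and Mrps25 were among the lowest. Capitals mark matches on either strand to GCGCANGCG (9 letters of the NRF1 motif with 1 open base), CCGGAAG (ETS factors, which include GABP), AAGATGGCG (YY1) or TGACGTCA (CREB and ATF factors). A stretch with no capitals holds none of these 4 strings, which were chosen with the values known.
Mrps14 (chr1:160195095-160195234, + strand): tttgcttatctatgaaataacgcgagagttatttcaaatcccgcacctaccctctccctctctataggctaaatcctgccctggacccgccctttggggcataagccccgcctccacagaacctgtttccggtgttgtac
Mrpl16 (chr19:11770295-11770434, + strand): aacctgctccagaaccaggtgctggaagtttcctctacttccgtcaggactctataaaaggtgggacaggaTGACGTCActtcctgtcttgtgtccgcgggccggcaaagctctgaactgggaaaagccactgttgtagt
Mrps36 (chr13:100744640-100744779, - strand): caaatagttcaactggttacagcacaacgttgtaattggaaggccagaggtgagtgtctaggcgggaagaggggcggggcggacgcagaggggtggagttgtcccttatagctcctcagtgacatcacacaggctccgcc
Mrpl30 (chr1:37890357-37890496, + strand): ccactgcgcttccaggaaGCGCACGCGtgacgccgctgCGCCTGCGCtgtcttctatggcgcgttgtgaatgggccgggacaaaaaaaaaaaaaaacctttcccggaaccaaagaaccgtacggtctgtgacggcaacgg
Mrpl2 (chr17:46646101-46646240, + strand): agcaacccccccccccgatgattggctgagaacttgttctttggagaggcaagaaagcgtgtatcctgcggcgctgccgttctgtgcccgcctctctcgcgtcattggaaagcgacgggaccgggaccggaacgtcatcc
Mrpl14 (chr17:45686229-45686368, + strand): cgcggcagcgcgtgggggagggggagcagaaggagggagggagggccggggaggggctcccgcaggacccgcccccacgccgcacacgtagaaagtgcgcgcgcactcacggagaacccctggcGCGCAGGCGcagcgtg
Mrps22 (chr9:98601660-98601799, - strand): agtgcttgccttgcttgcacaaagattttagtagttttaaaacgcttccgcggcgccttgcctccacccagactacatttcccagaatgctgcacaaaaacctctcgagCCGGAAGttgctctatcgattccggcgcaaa
Mrps25 (chr6:92184004-92184143, - strand): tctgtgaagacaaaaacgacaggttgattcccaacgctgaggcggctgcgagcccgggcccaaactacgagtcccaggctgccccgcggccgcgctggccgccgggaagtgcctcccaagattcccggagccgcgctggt

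Motif matches were counted in the whole 300 base window of the RefSeq table, 250 bases before to 50 after each start, on both strands. Where several starts were listed for a gene, members with a start peak took the one closest to that peak. All other genes took the first listed, so member and background windows were chosen in different ways. GCGCANGCG was present in 14 of the 59 windows (23.7%), against 6.47% of all 27025 genes in the table and 14.9% of the 8683 genes with a start peak in these libraries. GCGCATGCG, a stricter form that the first string includes, was in 11.9% of member windows and 4.18% of windows with a start peak. CCGGAAG was in 28.8% of member windows and 18.9% of windows with a start peak, and AAGATGGCG was in 13.6% and 3.32%. The 59 member windows include those of Mrpl27, Mrpl37, Mrps6 and Mrps11, which had no start peak. Without these genes, AAGATGGCG was in 6 member windows and absent from 49. TGACGTCA occurred in a single member, Mrpl16, which is 1.69% of member windows, against 3.48%. GGGCGG (SP1) was in 47.5% of member windows, against 66.6% of windows with a start peak, CACGTG (the E-box) in 6.78% against 10.9%, and ATTGG (the NFY core) in 40.7% against 40%. A gene on the opposite strand began within 1000 bases upstream of the start of 30.5% of the member genes, against 17.8% of genes with a start peak. Of the member genes with a start peak, 15 had such a neighbour and 40 did not. Mitd1, Tmem63b and Klc4 are such neighbours of Mrpl30, Mrpl14 and Mrpl2. Matches describe the letters and are not binding sites.

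Peaks are 200 bp wide and values are reads per peak, normalized by the authors. The table annotates a peak to the nearest start, which need not belong to the gene that the peak regulates. A distance of 1 kb or less from a start was found for 89 of the 138 peaks, which covered 64 genes, and the other 49, farther away, belonged to 24 genes. Mrpl27, Mrpl37, Mrps6 and Mrps11 had distant peaks only. By annotation class, 72 peaks were promoter peaks, 35 intronic and 24 intergenic, 3 exonic, 2 in a 5′ UTR, 1 in a 3′ UTR and 1 at a transcript end. There were 31 genes with 1 peak, and Mrpl14 had the most, 7. Of the distant peaks, 11 lay in a transcript of the gene they were annotated to and 14 in a transcript of another gene. All 5 Mrpl37 peaks, for example, were in introns of Ssbp3, a transcription cofactor gene, and 1 of the Mrps6 peaks was in the 5′ UTR of Slc5a3, a myo-inositol transporter gene. Among the 138 there were 11 neighbouring pairs of overlapping peaks, which share reads.

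The start peaks were about as open as start peaks in general. Their median over the 12 libraries was 162.3 reads, against 166.5 reads over all 18534 peaks within 1 kb of a start. The distant member peaks had a median of 114.1 reads, against 97.8 reads over all 33996 distant peaks. The highest means, 454.7 reads each, were those of a Mrps14 and a Mrps18b peak, followed by Mrpl41 with 454.5 reads. The first lay 158 bp from the start of Mrps14, a relative of bacterial S14. The second lay 320 bp from the start of Mrps18b, counted here as a mitochondria-specific small subunit gene. The Mrps14 peak had 519, 492 and 547 reads in fasted frozen, 415, 369 and 448 in fasted fresh, 485, 481 and 468 in fed frozen and 416, 444 and 373 in fed fresh libraries. At the bottom, a Mrpl35 intron peak averaged 44.3 reads, and a Mrpl33 peak 223 bp from the start averaged 49.6 reads. The 4 highest peaks were all start peaks, and of the 5 lowest 4 were distant ones.

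The libraries held 3690000 to 14500000 reads in peaks, with 61.5 to 260 reads in the median member peak, a counting error of 6.21% to 12.8%. The member peak with the fewest reads held 7 to 60 reads, depending on the library. Of 8 hepatocyte marker genes, 7 had a start peak (all but Ttr), whose sum per library was 2128 to 2292 reads in fasted fresh and 1996 to 2064 in fed fresh liver, and 2886 to 3222 in fasted frozen and 2579 to 2692 in fed frozen liver. None of 6 macrophage, 7 endothelial and 6 lymphocyte markers had a start peak, so there were no start-peak reads to sum. Peaks annotated to them at any distance numbered 2, 18 and 1 in that order, against 84 for the hepatocyte markers. A stellate cell marker (1 of 6) and a bile duct marker (1 of 5) had 1 start peak each, at 51.2 to 134 and 65.1 to 137 reads per library. Columns with the same letter (A, B or C) and feeding state were treated as 1 mouse because their values deviated together.

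Most member start peaks did not pass the threshold between fasted and fed liver, and those called were all higher in fasted liver. Peaks that did not pass were not shown to be unchanged. On the average of both preparations, 17 of 89 start peaks were higher in fasted liver and 0 were lower at an adjusted p under 0.05 (limma, 3 mice against 3). The shares over all peaks near starts were 19.7% higher and 4.59% lower, so the share of members that rose was close to that background. The median log2 difference, fasted minus fed, was 0.15 over the 89 member peaks and 0.12 over all peaks near starts. All but 5 of the 89 differences were above 0 (94.4%), against 77.5% over all peaks near starts. Away from starts the picture was mixed, with 7 of 49 higher and 12 lower, against backgrounds of 14.8% and 25.4%. Their median was -0.09, against -0.05 over all distant peaks. A bulk library cannot tell apart a change in the share of nuclei in which a site is open from a change in how open it is in each nucleus.

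**Figure D1:**
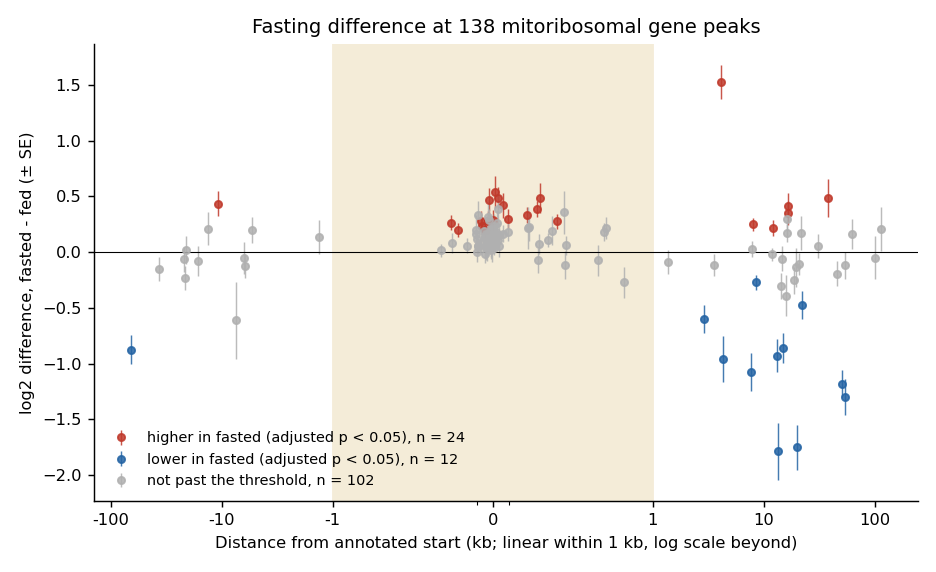
Log2 difference in reads, fasted minus fed, for the 138 mitochondrial ribosomal protein gene peaks (points, bars are ± SE) by signed distance from the annotated start in kb, linear within 1 kb (shaded) and logarithmic beyond. The 17 called peaks inside the shaded band are all higher in fasted liver, and all 12 that are lower lie outside it.

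**Figure D2:**
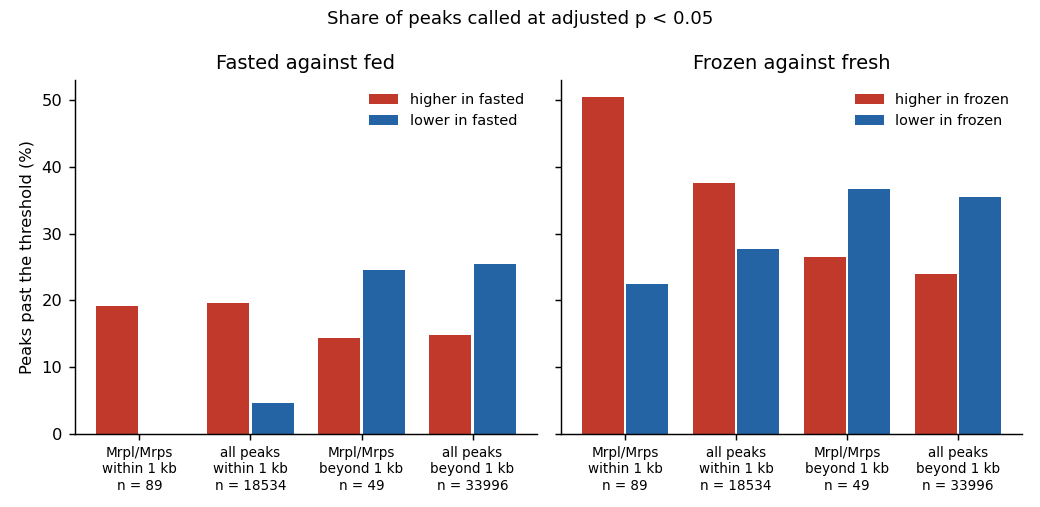
Percent of peaks called higher or lower at an adjusted p under 0.05, for mitochondrial ribosomal protein gene peaks and for all peaks, near starts and beyond 1 kb, in fasted against fed liver (left) and frozen against fresh liver (right). The fasting bars of the members are close to those of all peaks. At starts 0 of 89 member peaks were lower in fasted liver, against 4.59% of all peaks near starts, a difference that was not tested. For freezing 45 of 89 start peaks (50.6%) were higher, against 37.6% of all peaks near starts.

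The size of these changes depended on how libraries were scaled. When all libraries were given an equal median over start peaks, which moved the median log2 difference of all peaks from 0.05 to -0.08, that of all start peaks from 0.12 to -0.003 and that of the member start peaks from 0.15 to 0.03, 4 of the 17 start peaks were still called (Mrpl16, Mrpl36, Mrpl4 and Mrps36), 0 were lower, 1 of the 7 distant higher peaks was still called (Mrpl17), and all 12 distant lower peaks were. The same move is visible per library. Within 1 kb of starts the median member peak had 172 ± 3.21 reads in fasted fresh and 155 ± 6.83 in fed fresh liver (SD, n = 3 each), and 177 ± 7.54 in fasted frozen and 156 ± 5.66 in fed frozen liver. Over all peaks near starts the medians were 167 ± 2.16 in fasted fresh, 153.6 ± 1.98 in fed fresh, 176 ± 0.378 in fasted frozen and 161 ± 5.75 in fed frozen liver. Start peaks held 73.7% ± 0.125 of all member reads in fasted fresh and 70.7% ± 0.644 in fed fresh liver, and 76.8% ± 1.2 in fasted frozen and 72.8% ± 0.819 in fed frozen liver. Over all peaks the share near starts moved the same way. It was 47.6% ± 0.550 in fasted fresh and 44.6% ± 0.193 in fed fresh liver, and 48.9% ± 0.515 in fasted frozen and 46.4% ± 0.782 in fed frozen liver. Counts of higher peaks also depended on single mice, with 6 start peaks called without fasted mouse A, 7 without fed mouse A and 7 without fed mouse B, and with 2, 4, 2 and 3 distant ones called without fasted A, fasted C, fed A and fed B.

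Among large subunit genes, the start peak of Mrpl4, a relative of bacterial L4 that lines the tunnel through which the new protein leaves, had 145, 142 and 163 reads in fasted fresh and 107, 98.2 and 124 in fed fresh liver, and 179, 160 and 149 in fasted frozen and 108, 108 and 120 in fed frozen liver (mice A, B and C). All 6 fasted libraries were above all 6 fed libraries. The log2 difference was 0.49 ± 0.09 (SE, adjusted p = 0.00376), and the call held without each mouse in turn. A second peak 227 bp into Mrpl4 had a difference of 0.23 ± 0.13 that did not pass (adjusted p = 0.20).

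Mrpl36, a relative of bacterial L36, had 2 start peaks that were both higher in fasted liver. The one 278 bp from the start had 282, 242 and 268 reads in fasted fresh and 204, 223 and 200 in fed fresh liver, and 328, 293 and 320 in fasted frozen and 224, 231 and 238 in fed frozen liver. Here too the 6 fasted libraries lay above the 6 fed ones, by 0.39 ± 0.07 (adjusted p = 0.00302). Mrpl16, a relative of bacterial L16 that stands beside the site where tRNAs bind, had the largest difference among start peaks, 0.54 ± 0.15 (adjusted p = 0.0188), a call that was lost without fasted mouse A and without fed mouse B. Its peak 15 bp from the start had 57.0, 53.5 and 55.4 reads in fasted fresh and 35.5, 21.2 and 41.4 in fed fresh liver, and 84.6, 94.2 and 93.5 in fasted frozen and 73.9, 81.2 and 67.5 in fed frozen liver. Within each preparation the fasted libraries were higher, but fed frozen libraries were above fasted fresh ones. Its promoter holds the TGACGTCA string printed above. The second, overlapping Mrpl16 peak did not pass (0.33 ± 0.13, adjusted p = 0.067).

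Other large subunit start peaks that rose were those of Mrpl30, with 0.42 ± 0.11 (adjusted p = 0.0178), 2 overlapping peaks in the first intron of Mrpl48, a mitochondria-specific protein (0.33 and 0.28), and peaks of Mrpl23, Mrpl15, Mrpl14, Mrps30, Mrpl17, Mrpl34 and the second Mrpl36 peak, with differences of 0.20 to 0.30. Of these only the 2 Mrpl48 calls held without each mouse in turn. Among the large subunit relatives of bacterial proteins, 7 of 25 genes had a higher peak closest to their start, and of the mitochondria-specific large subunit genes 1 of 18 did. Over all peaks near starts 19.7% were higher, and the difference between these roles was not tested.

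The small subunit, with fewer genes, contributed fewer called peaks, and its share was not tested against that of the large subunit. Of 11 relatives of bacterial proteins 0 had a called peak closest to their start, and of 9 mitochondria-specific genes 2 did, Mrps23 and Mrps35, by 0.23 and 0.20. The Mrps35 call was lost whichever mouse was left out, the Mrps23 call held in 2 of the 6 fits that left out a mouse, and both were lost under quantile normalization and under scaling to start peaks. Mrps9, a relative of bacterial S9, had a called peak 293 bp into its first intron with 96.4, 87.3 and 93.8 reads in fasted fresh and 66.6, 62.4 and 70.3 in fed fresh liver, and 95.5, 73.2 and 75.7 in fasted frozen and 59.6, 49.4 and 62.2 in fed frozen liver. All 6 fasted libraries were above the fed ones, with a difference of 0.49 ± 0.13 (adjusted p = 0.0192). The call was lost without fasted mouse A, without fed mouse B and under scaling to start peaks. The start peak of Mrps36, the 2-oxoglutarate dehydrogenase component, had 204, 207 and 192 reads in fasted fresh and 138, 134 and 169 in fed fresh liver, and 161, 151 and 171 in fasted frozen and 124, 92.4 and 130 in fed frozen liver. It rose by 0.47 ± 0.11 (adjusted p = 0.00801), and the call held without each mouse. Of the 89 start peaks, 4 separated the 6 fasted from the 6 fed libraries completely, all upward, where 5.0% of all peaks near starts did so upward and 1.73% downward.

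**Figure D3:**
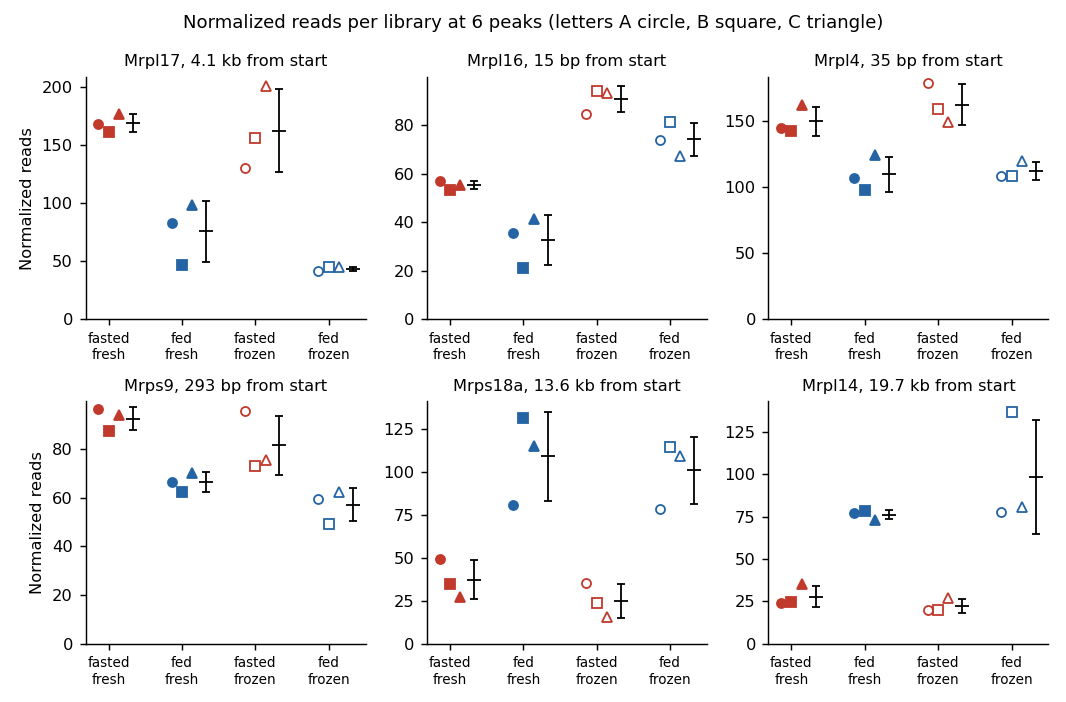
Normalized reads in each library (circles, squares and triangles for mice A, B and C, filled for fresh and open for frozen liver) at 6 peaks, with the mean and SD of each group of 3 as a bar. At Mrpl17 fasted libraries hold 130 to 200.3 reads and fed ones 41.7 to 97.9, whereas at the distant Mrps18a and Mrpl14 peaks the fasted libraries are the lower ones.

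The largest rise lay at the far end of a member gene. The peak in the 3′ UTR of Mrpl17, a relative of bacterial L17 near the tunnel exit, at chr7:105806846-105807046 and 4.14 kb from the start, had 168, 161 and 176 reads in fasted fresh and 82.5, 46.5 and 97.9 in fed fresh liver, and 130, 156 and 200.3 in fasted frozen and 41.7, 44.6 and 44.7 in fed frozen liver. The groups did not overlap. The difference was 1.53 ± 0.15 (adjusted p = 0.000226). The authors' deposited table gives log2 fold changes of 1.11 in fresh and 1.86 in frozen liver for it. Of the 3 peaks at the Mrpl17 start, the one 263 bp away rose by 0.26 ± 0.07 and the others, at 0.17 and 0.06, did not pass (adjusted p = 0.11 and 0.52).

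The largest falls were all away from starts. In the third intron of Mrps18a, at chr17:46124459-46124659 and 13.6 kb from the start, reads were 49.5, 34.8 and 27.1 in fasted fresh and 80.8, 131 and 115 in fed fresh liver, and 35.5, 23.5 and 15.6 in fasted frozen and 78.6, 115 and 110 in fed frozen liver. The fasted libraries were all below the fed ones, by -1.79 ± 0.26 (adjusted p = 0.000988). A neighbour in the same intron fell by 0.93 ± 0.15, with an adjusted p of 0.00167. The Mrps18a start peak itself had a difference of 0.11 ± 0.08 (adjusted p = 0.32).

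Mrpl14, a relative of bacterial L14 at the face between the subunits, had peaks that moved in both directions. Its start peak, shared with the start of Tmem63b, rose by 0.28 ± 0.09 (adjusted p = 0.0333), and an intronic peak 8.04 kb away rose by 0.25 ± 0.06 (adjusted p = 0.013). The intergenic peak at chr17:45705978-45706178, 19.7 kb away, had 23.8, 24.4 and 35.0 reads in fasted fresh and 77.2, 78.3 and 72.9 in fed fresh liver, and 20.02, 20.1 and 26.7 in fasted frozen and 77.4, 137 and 80.6 in fed frozen liver. Every fasted library was below every fed one, with a difference of -1.75 ± 0.20 (adjusted p = 0.000367). The next peak, 22.0 kb away in a MIR repeat, fell by 0.47 ± 0.13 with an adjusted p of 0.0192, and the other 3 intergenic peaks ranged from -0.30 to 0.17 and did not pass. Mrpl23, a relative of bacterial L23 at the tunnel exit, likewise had a start peak that rose by 0.30 ± 0.09 and a peak in its second intron that fell by 0.60 ± 0.12 (adjusted p = 0.033 for the start peak and 0.00565 for the intron).

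Other distant peaks that fell carried the names of member genes but mostly lay in other transcripts or in repeats. Of the 5 Mrpl37 peaks in Ssbp3, those at chr4:107012582-107012782 and chr4:107015921-107016121 had differences of -1.30 ± 0.16 and -1.18 ± 0.12 (adjusted p = 0.000518 and 0.000251), and the others ranged from -0.19 to 0.16 and did not pass. The first had 46.1, 62.3 and 41.8 reads in fasted fresh and 129, 139 and 120 in fed fresh liver, and 39.1, 41.0 and 28.9 in fasted frozen and 96.5, 87.6 and 75.3 in fed frozen liver, with no overlap. An intergenic peak 7.73 kb from Mrpl27, a relative of bacterial L27, had a difference of -1.08 ± 0.17 (adjusted p = 0.00167). Smaller falls were found in a B3A SINE in the first intron of Mrpl35 (-0.96), a B4A SINE in Trerf1 annotated to Mrps10 (-0.87), an ERVK element in Mrps31 (-0.86) and the second intron of Mrps27 (-0.27). The start peaks of Mrpl35, Mrps10, Mrps31 and Mrps27 had differences of 0.05 to 0.23 and did not pass.

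Distant peaks that rose besides the Mrpl17 one were a pair of overlapping SINE peaks 16.5 and 16.6 kb from Mrpl15 (0.35 and 0.41), an intergenic peak 37.7 kb from Mrps23 (0.49), one in an ERVL element 10.8 kb from Mrpl39 (0.43), and intron peaks of Mrpl14 (0.25) and Mrpl1 (0.22). Without each mouse in turn, 10 of the 12 falls and 1 of the 7 rises, that of Mrpl17, held in every case. Libraries did not overlap at 7 of the 49 peaks downward and 1 upward, where 11.1% and 5.25% of all distant peaks did so.

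Within fresh liver alone, 11 of 89 start peaks were higher in fasted liver and 0 lower (background 13.2% and 3.45%), and of the distant peaks 5 were higher and 10 lower (background 10.5% and 23.0%). Within frozen liver, 8 start peaks were higher and 0 lower (background 12.8% and 3.7%), and 3 distant peaks were higher and 13 lower (background 12.8% and 21.1%). In the authors' deposited table, 17 of the 138 member peaks were higher and 10 lower in fresh liver (background 8.93% and 14.1% of all peaks). For frozen liver 12 were higher and 13 lower (background 13.5% and 16.0%). These backgrounds are not split by distance, and start peaks were 64.5% of the members but 35.3% of all peaks. The member shares can thus not be compared with them directly. At starts the fresh libraries gave 12 higher and 0 lower member peaks, with 5 and 10 beyond 1 kb. The frozen libraries gave 9 and 0 at starts, with 3 and 13 beyond 1 kb. Mrpl17, Mrps18a and the Mrpl14 peak 19.7 kb away were called with the same sign in each preparation, at 1.85 ± 0.18, -2.03 ± 0.29 and -2.06 ± 0.26 in frozen and 1.21 ± 0.21, -1.54 ± 0.24 and -1.45 ± 0.21 in fresh liver. Whether the fasting difference itself differed between preparations was tested as an interaction. By limma, 0 of 138 members passed (background 0.0%), with 7 at an unadjusted p under 0.05. With the mouse as a block 0 members passed as well, and 187 peaks higher and 208 lower over the whole table. The smallest of these p-values belonged to the Mrpl1 intron peak, whose difference was 0.44 in frozen and -0.01 in fresh liver (unadjusted p = 0.0068, adjusted p = 0.86). Start peak counts in fresh liver fell to 2 without fasted mouse A and 6 without fed mouse A, distant rises to 2 without fasted A, and start peak counts in frozen liver to 3, 4 and 4 without fasted A, fed A and fed B.

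More member peaks were called between frozen and fresh liver (96 of 138) than between fasted and fed liver (36). The same held over the whole table, with 28.7% higher and 32.8% lower for freezing and 16.5% and 18.1% for fasting. The tests differ, since freezing took each library as a separate sample and fasting averaged the libraries of a mouse. Library numbers of fresh and frozen liver form separate runs. An effect of processing batch, which the labels do not give, could thus not be told apart from preparation. Within each preparation the fed and fasted libraries also form separate runs of numbers, so the same limit holds for the fasting differences. At starts, 45 of 89 peaks were higher in frozen than in fresh liver and 20 were lower (limma over 12 libraries with feeding state as a covariate), against 37.6% and 27.7% of all peaks near starts. The median difference, frozen minus fresh, was 0.15 for the members and 0.06 for all peaks near starts. Scaled to the median over start peaks, 40 were higher and 27 lower. Away from starts, 13 of 49 were higher and 18 lower, against 23.9% and 35.5%. All 6 frozen libraries were above all 6 fresh ones at 32 start peaks and below them at 12, where 22.4% and 13.8% of all peaks near starts were.

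**Figure D4:**
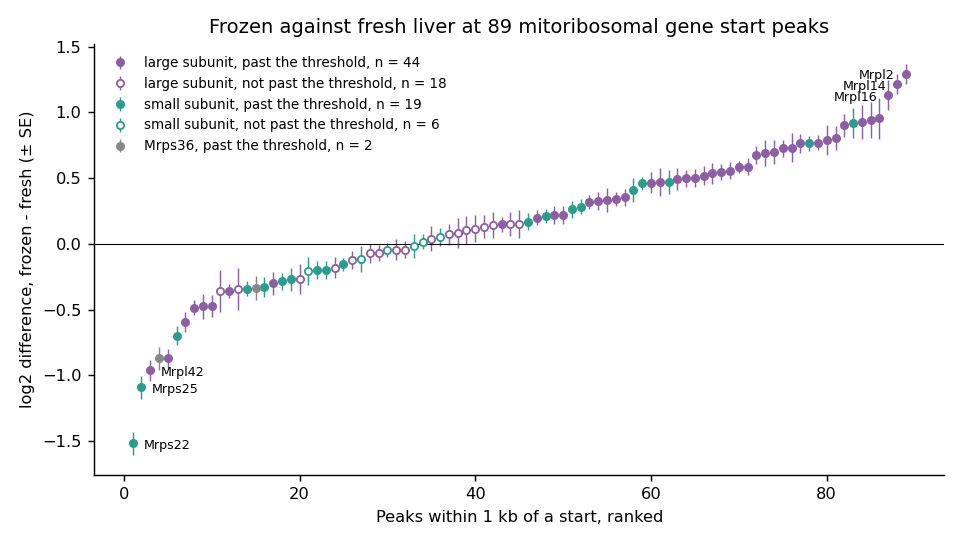
Log2 difference, frozen minus fresh (± SE), at the 89 peaks within 1 kb of a start, ranked, with large subunit genes in purple, small subunit genes in green and Mrps36 in grey, and open points where the adjusted p was 0.05 or more. Values run from -1.52 at Mrps22 to 1.29 at Mrpl2.

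Large subunit genes led the rises. Mrpl2, a relative of bacterial L2 beside the catalytic centre, had 246, 264 and 240.3 reads in fasted frozen and 102, 92.0 and 89.3 in fasted fresh liver, and 183, 225 and 229.5 in fed frozen and 88.8, 94.3 and 93.3 in fed fresh liver. Every frozen library held over 180 reads and every fresh one under 103. The difference was 1.29 ± 0.08 (adjusted p = 1.05e-09). The Mrpl14 start peak, likewise at a shared start, had 258, 220.5 and 220.3 reads in fasted frozen and 117, 112 and 103 in fasted fresh liver, and 204, 223 and 209 in fed frozen and 78.1, 85 and 82.8 in fed fresh liver, a difference of 1.21 ± 0.08 (adjusted p = 2.02e-09). The 2 overlapping Mrpl16 peaks rose by 1.13 ± 0.11 and 0.95 ± 0.15, the 2 overlapping peaks of Mrpl22, a tunnel protein, by 0.94 and 0.93, Mrps7, a relative of bacterial S7, by 0.92 and Mrpl23 by 0.90. The highest values of all were at the SINE pair near Mrpl15, with 1.39 ± 0.10 and 1.34 ± 0.12, where the frozen libraries held 183 to 274 reads and the fresh ones 54.4 to 128.

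The lowest start peaks were those of 2 mitochondria-specific small subunit genes. Mrps22, which is mutated in human mitochondrial disease, had 69.2, 52.3 and 53.4 reads in fasted frozen and 172, 164 and 166 in fasted fresh liver, and 51.2, 57.3 and 52.6 in fed frozen and 158, 147 and 161 in fed fresh liver. Every frozen library was below every fresh one, by -1.52 ± 0.09 (adjusted p = 9.09e-10). Its fasting difference of 0.11 ± 0.11 did not pass (adjusted p = 0.46). Mrps25 had 82.8, 69.7 and 64.5 reads in fasted frozen and 153, 149.6 and 165 in fasted fresh liver, and 69.1, 58.9 and 71.0 in fed frozen and 152, 138 and 133 in fed fresh liver, a difference of -1.09 ± 0.09 (adjusted p = 2.37e-08). Mrpl42 (-0.96), Mrpl19 (-0.87) and the second Mrps36 peak (-0.87) followed. Among distant peaks, one in Rab6a annotated to Mrpl48 (-1.22), the Slc5a3 peak annotated to Mrps6 (-1.19) and the Mrpl35 SINE peak (-0.99) fell by most.

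The direction differed between roles in count. Taking the peak closest to the start of each gene, 16 of 25 large subunit relatives of bacterial proteins were higher in frozen liver and 3 lower, and of the mitochondria-specific large subunit genes 7 of 18 were higher and 4 lower. In the small subunit, 3 of 11 bacterial relatives were higher and 5 lower, and of the mitochondria-specific genes 4 of 9 were higher and 4 lower. The median differences were 0.50, 0.12, -0.05 and -0.02 in that order, and the difference between roles was not tested. By comparison, 37.6% of all peaks near starts were higher in frozen liver and 27.7% lower. Genes with and without the GCGCANGCG string also differed in count. Of the 14 genes with the string in their window, 11 had a start peak higher in frozen liver and 0 lower, with a median of 0.68. Of the 41 without it, 15 had one higher and 14 one lower (median -0.02). Mrpl14 and Mrpl30, whose matches are in capitals above, were among the 11, as were Mrpl22, Mrpl9 and Mrps18b. Over all 8683 genes with a start peak, 57.8% of those with the string and 34.3% of those without were higher in frozen liver, and 17.5% with it and 34.0% without were lower. For fasting the members' medians were 0.16 with and 0.13 without the string. GCGCANGCG was not the only string whose freezing shares differed. Over all genes with a start peak, 60.9% of those with TGACGTCA were higher in frozen liver and 10.6% lower, against 37.0% and 32.3% without it. With CACGTG the shares were 52.8% and 22.5%, against 36.0% and 32.7% without it. Of 23 members with ATTGG, 7 were higher and 9 lower, and of 32 without it 19 and 5. None of these differences was tested.

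Genes that assemble and serve the mitochondrial ribosome are given by the peak closest to their start, beside the 19.7% higher and 4.59% lower over all peaks near starts. Of 19 assembly genes with such a peak, 3 were higher in fasted liver and 0 lower, led by the rRNA methyltransferase gene Tfb1m, with 0.48 ± 0.10 (adjusted p = 0.00558). Of 14 translation factor genes 5 were higher and 0 lower, among them Mtif2, which encodes the initiation factor, with 0.28 ± 0.07 (adjusted p = 0.0142), and Oxa1l, the inner membrane insertase, with 0.42 ± 0.14 (adjusted p = 0.0424). Of 11 mitochondrial RNA processing genes 3 were higher, including Pnpt1, the polynucleotide phosphorylase, with 0.32 ± 0.09 (adjusted p = 0.0212). Of 10 genes for mitochondrial transcription and genome maintenance, Tfam among those listed, 0 were called at their start. Of 4 mitoribosomal proteins under other symbols, such as Dap3, 0 were called. Of 11 nuclear regulators 4 were higher, with Ppargc1a, the coactivator induced by fasting, at 0.61 ± 0.15 (adjusted p = 0.0112), and Gabpa, which encodes the ETS-domain subunit of GABP, at 0.34 ± 0.10 (adjusted p = 0.0266). These lists hold 19 genes or fewer, and no difference from the background was tested. The calls of Tfb1m and Ppargc1a held without each mouse in turn and under each other setting. Those of Mtif2, Oxa1l, Pnpt1 and Gabpa were lost under scaling to start peaks, and also without fasted mouse A. The remaining translation factor calls, Gfm1, Slirp and Tufm, were lost in 8, 9 and 9 of 11 alternative fits, those without a mouse included. Calls of the other lists that are not named here were lost in 3 to 9 of 11. The Ppargc1a start peak had 216, 156 and 204 reads in fasted fresh and 157, 149 and 112 in fed fresh liver, and 207, 140 and 189 in fasted frozen and 118, 102 and 93.7 in fed frozen liver, with the fasted group overlapping the fed one in fresh liver.

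For freezing these genes were mixed, with backgrounds of 37.6% higher and 27.7% lower. Of the 19 assembly genes 3 were higher in frozen liver and 9 lower, with the rRNA chaperone gene Eral1 at -0.70 ± 0.08 (adjusted p = 1.68e-06) and the GTPase gene Mtg1 at 0.63 ± 0.09 (adjusted p = 1.23e-05). Of the 14 translation factor genes 4 were higher and 6 lower, with the translational activator gene Taco1 at 0.71 ± 0.06 and the elongation factor gene Gfm1 at -0.61 ± 0.07. A further set was taken by an Rpl or Rps symbol followed by a number, as genes for proteins of the cytoplasm's ribosomes have. Genes of other function can share such symbols and were not removed. The genes of this set gave 184 peaks. Of their 104 start peaks 24 were higher and 1 lower in fasted liver, and 67 were higher and 10 lower in frozen liver. Of their 80 distant peaks 10 were higher and 23 lower in fasted liver. The share of start peaks higher in frozen liver was thus 64.4% for the Rpl and Rps symbols and 50.6% for mitochondrial ribosomal protein genes, and the difference was not tested.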

How the data were processed

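The authors deposited 1 table of 52530 merged peaks. Per the file headers it gives each peak a position, a score, an annotation and a distance to the nearest start. For each of 12 libraries a signal column holds the reads in every peak after the authors' normalization. Within each column all values were whole multiples of 1 step (100% within 1e-06), and depths take that step as 1 read. No count model was fitted, since the smallest value of most columns exceeds 1 step. The authors' log2 fold changes and adjusted p-values, per the file headers for fasting in fresh and in frozen liver, are quoted as the authors' deposited table. Per the submitters' processing notes the tools were BWA 0.7.5a-r405, SAMtools, HOMER and DESeq2 with the mm10 build, without their roles. How duplicates and the transposase offset were treated was not stated.

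Differences were tested on log2(value + 1), with no filter, by limma 3.58.1 under R 4.3.3, two-sided with a trended prior and Benjamini-Hochberg adjustment over all peaks. The script was tested on simulated data. For fasting, the fresh and frozen values of a mouse were first averaged. The labels number the mice and the columns carry letters instead. Same-letter columns of a feeding state correlated in their deviations from the group means (r = 0.329 to 0.640, highest other r = 0.0213), so this pairing comes from the data. Peaks were named by size of difference (the 8 highest and 8 lowest called), level and distance, and not all are given. The members, gene lists, motifs and tests were chosen with earlier results of these data known, so they are no independent support.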

Additional observations from a re-analysis of the deposited data

How the results depend on the processing

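None of the single-peak differences recomputed under the alternatives changed sign, but scaling to start peaks turned the median fasting difference over all peaks to -0.08 and over all start peaks to -0.003 (0.05 and 0.12 as reported). Scaling to the median over peaks near starts gave 4 start and 1 distant higher peaks for average fasting, 3 higher and 1 lower start peaks and 3 distant higher ones in fresh liver, and 2 higher start peaks in frozen liver. Leaving out the lowest 25% of peaks gave 6 distant lower peaks in fresh and 8 in frozen liver, by construction, since fewer peaks were tested. Without 1 mouse at a time, higher start peaks numbered 6 to 14 (average), 2 to 13 (fresh) and 3 to 8 (frozen), distant higher ones 2 to 6, 2 to 6 and 2 to 3, and distant lower ones 11 to 13, 9 to 11 and 11 to 14. The ranges for freezing were 43 to 45 and 19 to 21 near starts and 10 to 14 and 15 to 17 beyond.

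With the replicate block by letter, fasting had 20 higher and 0 lower start peaks and 6 higher and 13 lower distant ones, and freezing had 46 and 24, and 16 and 23. No interaction count moved from 0 for the members, while over the whole table the block gave 187 higher and 208 lower interaction calls, against 0 without it. For 19 single peaks for fasting and 24 for freezing, chosen mainly by size of difference, values were recomputed per setting. Of these values 172 for fasting kept their side of the threshold and 31 lost it, and 250 and 10 did for freezing. Over all called member peaks for average fasting, fewer calls held in every setting that tested them. They were 3 of 17 start peaks, 1 of 7 distant rises and 10 of 12 distant falls. A pseudocount of 5 and quantile normalization kept every count within 1.5 times. Depth limits the lowest peaks most, where counting error reached 37.8%. That figure leaves out PCR duplication.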

Other observations

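An intergenic peak in a B1F SINE annotated to Mrpl4, at chr9:20995165-20995365, varied between mice more than between feeding states. It had 165, 142 and 81.4 reads in fasted fresh and 162, 179 and 155 in fed fresh liver (mice A, B and C), and 147, 128 and 28.9 in fasted frozen and 148, 153 and 133 in fed frozen liver. Fasted mouse C was the lowest in both preparations. The difference between feeding states was -0.61 and did not pass the threshold. The peak 454 bp into Mrpl4 was also lowest in that mouse, with 133 reads in its fresh and 147 in its frozen library, against 172 to 214 reads in the other libraries. This was noticed after the values were seen and was not tested.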
